A study of Arabidopsis thaliana with 12 samples.

Results

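The comparison described here is the genotype-by-ABA interaction in Arabidopsis seedlings, which asked whether genes responded more or less strongly to abscisic acid (ABA) in the mutant rop10-1 than in the wild type Ws. For each probe set the ABA response of Ws (ABA minus mock) was subtracted from that of rop10-1, so that a negative value marks a more negative or smaller response in the mutant and a positive value a more positive one. All 12 arrays of the study entered this comparison, and 15923 of the 22810 probe sets on the array were tested. Under ABA, signals of the anthocyanin enzyme genes DFR, UF3GT and AT4G14090 and of the cold-regulated gene COR15B were lower on every rop10-1 array than on every Ws array, while those of AT3G28580, of the AAA ATPase type, and of the phosphatase gene SAL2 were higher. The ABA arrays of the genotypes were apart in this way, in either direction, for 10.9% of all tested probe sets. The genes were picked by the interaction or from lists, and SAL2 was also higher on every rop10-1 array in mock. None of the interactions of these genes passed the test across all probe sets in the fit over the 12 arrays. Only that of AT3G28580 passed in a fit to the differences within replicate numbers.

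ABA is the plant hormone of drought, seed maturation and bud or seed dormancy, and it acts through receptors that inhibit phosphatases and so release protein kinases, which activate bZIP transcription factors. The genes it induces include those of late embryogenesis abundant (LEA) proteins and dehydrins, hydrophilic proteins that accumulate in drying or chilled tissue. ROP proteins are small GTPases of plants, molecular switches at the plasma membrane, and ROP10 is known in Arabidopsis as a negative regulator of ABA responses.

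The 4 groups were Ws mock, Ws ABA, rop10-1 mock and rop10-1 ABA, with 3 biological replicates each. Seedlings of both genotypes had grown for 7 days in shaken liquid medium with sucrose, and then stood for 4 hours in 1 µM ABA or, as the mock treatment, in DMSO. The labels give no age beyond this, no description of the rop10-1 lesion, and a single mutant line, so an effect of rop10-1 cannot be told apart from other differences between that line and Ws. RNA came from whole seedlings, in which fewer cells of a type and less RNA per cell cannot be told apart. The platform's probe table assigns no tested probe set to ROP10, and the mutated gene was not analysed here.

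The deposited signal, a linear intensity per probe set, had a 2% trimmed mean of 500.04 to 500.05 and a median of 180.1 to 203.3 on the 12 arrays, and their number limits the precision. Differences are given below on the scale of log2(signal + 16), which understates the change of dim probe sets, and signals are given for replicate numbers 1, 2 and 3 in that order. Arrays with the same replicate number in different groups deviated together from their group means, so the interaction was also computed within each number. Unless stated otherwise, standard errors and intervals below are from the fit over the 12 arrays, which leaves this pairing out. They therefore include spread that the arrays of a number share. The median standard error of an interaction was 0.25, and its 95% interval reached 0.55 to either side at the median before any adjustment for the number of probe sets. The size that could pass after adjustment was larger than this, and interactions of about 2 on this scale did not pass in the fit over 12 arrays.

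No probe set passed the interaction test of limma at a Benjamini-Hochberg adjusted p under 0.05 (0 of 15923, 0%), and every adjusted p rounded to 1. At an unadjusted p under 0.05 there were 301 (1.89%). A fit that treated replicate numbers as a block also gave 0 calls; its smallest adjusted p was 0.454, and 803 probe sets (5.04%) had an unadjusted p under 0.05. When limma was fitted to the 3 within-number differences alone, which takes the pairing of all 4 arrays of a number into account, 2 probe sets passed and both were higher in rop10-1 (adjusted p = 0.0421 each). These were AT3G28580 and probe set 250286_at, which has no gene in the probe table used here. DFR followed at an adjusted p of 0.0697 in the same fit. That fit had 1335 of the 15923 probe sets at an unadjusted p under 0.05, more than the other 2 fits.

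The 3 replicate numbers shared little of the interaction. Across the 15923 probe sets, which are read from the same arrays and are not independent replicates, the interaction of number 1 correlated with that of number 3 at Pearson's r = 0.313 (Spearman 0.247). The correlation was 0.05 (Spearman 0.071) between numbers 1 and 2 and -0.003 (Spearman -0.022) between numbers 2 and 3. The interaction had an SD over probe sets of 0.38, 0.46 and 0.40 in numbers 1, 2 and 3, and it had the same sign in all 3 numbers for 29.9% of them. It was at least 0.5 in size with the same sign in all 3 numbers for 53 probe sets with a lower ABA response in rop10-1 (0.333%) and 76 with a higher one (0.477%). Of each set 37 had a single gene in the probe table, and the genes described below were taken from them by the size of their weakest number, or from lists of genes. Because these genes were picked by the interaction, its values for them are a description.

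**Figure D1:**
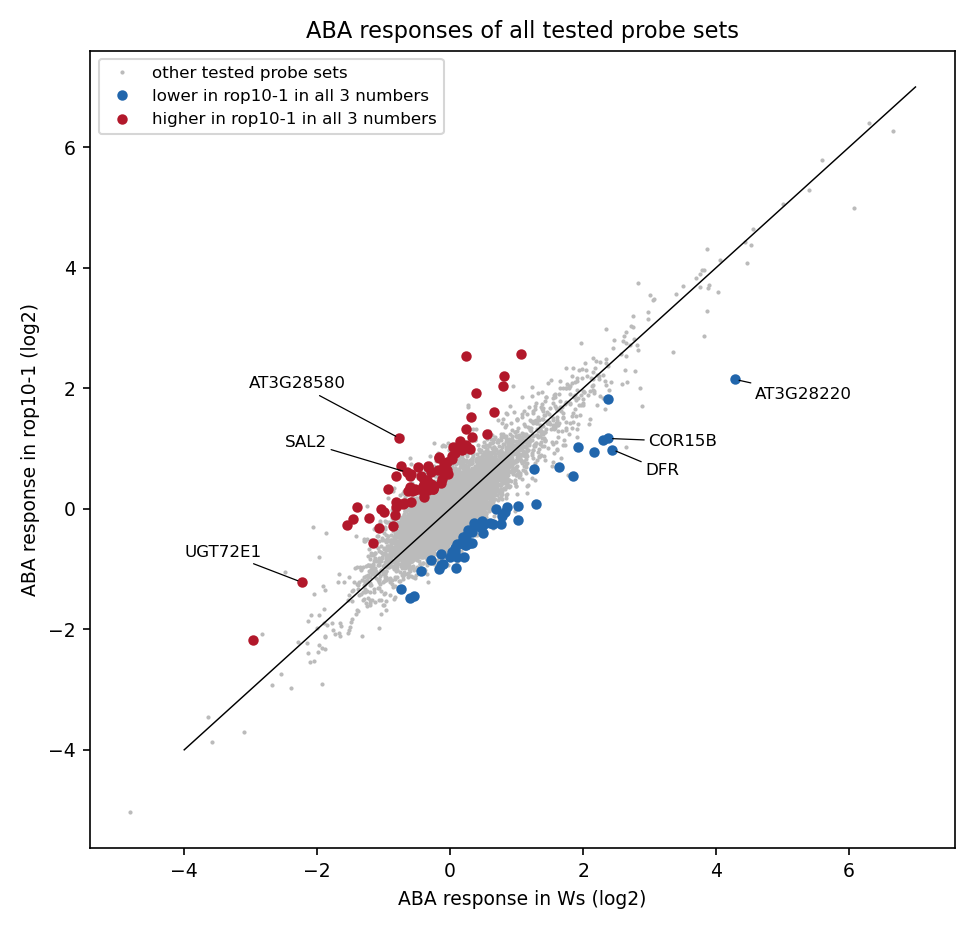
Log2 ABA response in rop10-1 (vertical axis) against that in Ws (horizontal axis) for the 15923 tested probe sets, each response being the mean of 3 ABA minus the mean of 3 mock arrays. Blue points are the 53 probe sets with a lower and red points the 76 with a higher response in rop10-1 by at least 0.5 in every replicate number, chosen by this difference, and the line marks equal responses.

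The size of the ABA response as a whole was close to equal in the genotypes. Averaged over both genotypes, 1307 probe sets rose with ABA (8.21%) and 1168 fell (7.34%). The probe sets that rose had a median response of 0.74 in Ws and 0.74 in rop10-1, and their median interaction was 0.004, from -0.033 to 0.039 over the 3 numbers. The probe sets that fell had -0.59 in Ws and -0.56 in rop10-1, with a median interaction of 0.009, from -0.052 to 0.10 over the numbers. Among the 397 that rose at least 2-fold the median response was 1.49 in Ws and 1.46 in rop10-1. The 169 that fell at least 2-fold had -1.27 in Ws and -1.33 in rop10-1, a median interaction of -0.094, which was negative in numbers 1 and 2 (-0.169 and -0.127) and positive in number 3 (0.029). None of these medians kept its sign in all 3 numbers. The responses of Ws and rop10-1 share no array, and the sets were chosen on the average over all 12.

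**Figure D2:**
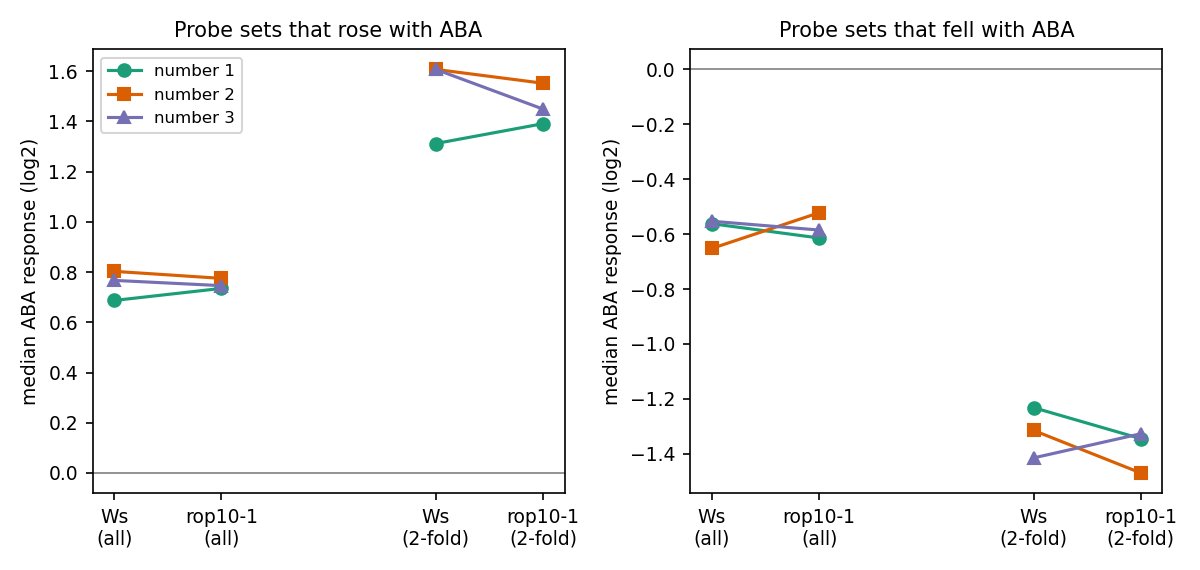
Median log2 ABA response in each genotype and replicate number, for probe sets that rose (left) or fell (right) with ABA on average and for those that did so at least 2-fold. Lines join Ws and rop10-1 of the same number and slope up in some numbers and down in others in all 4 sets.

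Interactions over 1 in size were found for few of the strong responders, and none of these passed the test in the fit over arrays, with the replicate block or on the within-number differences. Of the 397 probe sets that rose at least 2-fold, 9 had an interaction under -1 and 5 over 1, against 16 under -1 and 58 over 1 among all tested. Of the 169 that fell at least 2-fold, 0 were under -1 and 2 over 1. The 9 included AT3G28220, DFR, UF3GT, COR15B and AT4G14090, and the other 4 had no single gene in the probe table, 1 of them with a positive value in number 1. Of the 53 probe sets that were lower in all numbers, 12 (22.6%) rose with ABA on average and 2 (3.77%) fell. Of the 76 higher ones 7 (9.21%) rose and 7 (9.21%) fell. Among all tested probe sets 8.21% rose and 7.34% fell, so the shares of the higher ones were near these.

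Of the gene lists, that of anthocyanin synthesis had the lowest median interaction. The lists here and below were made with earlier results of these data known, and DFR was also picked by its interaction. The values of the lists beside those of all probe sets are therefore a description. Anthocyanins are the red and purple flavonoid pigments of stressed leaves and stems. Of 14 genes in this list 5 were measured, and all 5 rose with ABA on average over both genotypes. All 5 mean interactions were below 0, also after quantile normalization and median centring, with a median of -1.19 beside 0 for all tested probe sets. In all 3 numbers 3 of the 5 were below 0, beside 2432 of the 15923 tested probe sets. None passed the test.

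DFR (locus AT5G42800) encodes dihydroflavonol reductase, the first enzyme committed to anthocyanins. Its signal was 78.4, 111 and 142 in Ws mock and 426, 822 and 793 in Ws ABA, and it was 122, 138 and 168 in rop10-1 mock and 228, 375 and 302 in rop10-1 ABA. Every Ws ABA array was above every rop10-1 ABA array, while the mock arrays of the genotypes overlapped. The ABA arrays of the genotypes were apart in this way, in either direction, for 10.9% of all tested probe sets, and the mock arrays for 9.4%. The ABA response was 2.44 in Ws and 0.98 in rop10-1. The interaction was -1.45 (SE 0.38, 95% interval -2.28 to -0.63), with -1.41, -1.38 and -1.57 in the 3 numbers, the most even of the 3 largest in this list.

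UF3GT encodes a glycosyltransferase that adds a sugar to anthocyanins. Its signal was 339, 519.5 and 469 in Ws ABA and 252, 276 and 192 in rop10-1 ABA, from 107, 86.5 and 64.5 in Ws mock and 126, 114 and 107 in rop10-1 mock. Its ABA arrays did not overlap between genotypes. The interaction was -1.22 (SE 0.28, 95% interval -1.83 to -0.61), but its size differed between numbers, at -0.61, -1.22 and -1.83.

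AT4G14090, another anthocyanin glucosyltransferase gene, had 501, 609 and 596 in Ws ABA against 185, 365 and 181 in rop10-1 ABA. Its mock signals were 63.8, 58.6 and 66.3 in Ws and 69.2, 45.9 and 67.9 in rop10-1. Array 2 of rop10-1 ABA lay between the other rop10-1 ABA arrays and those of Ws, and the interaction was -1.19 (SE 0.33), with -1.46, -0.44 and -1.66 in the numbers.

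AT5MAT, which encodes an anthocyanin malonyltransferase, had 162, 121 and 161 in Ws ABA and 81.0, 122 and 84.8 in rop10-1 ABA, and these overlapped. Its interaction was -0.58 (SE 0.31) and positive in number 2. UGT78D2, a flavonoid glucosyltransferase gene that also serves flavonols, had -0.06 (95% interval -0.41 to 0.28), with an ABA response of 0.29 in Ws and 0.23 in rop10-1. CHIL, a chalcone isomerase-like gene that promotes flavonoid synthesis and was not in the list, had 718, 578 and 798 in Ws ABA and 603, 465 and 368 in rop10-1 ABA. Its interaction was -0.97 (SE 0.31), with -0.79, -0.88 and -1.25 in the numbers.

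**Figure D3:**
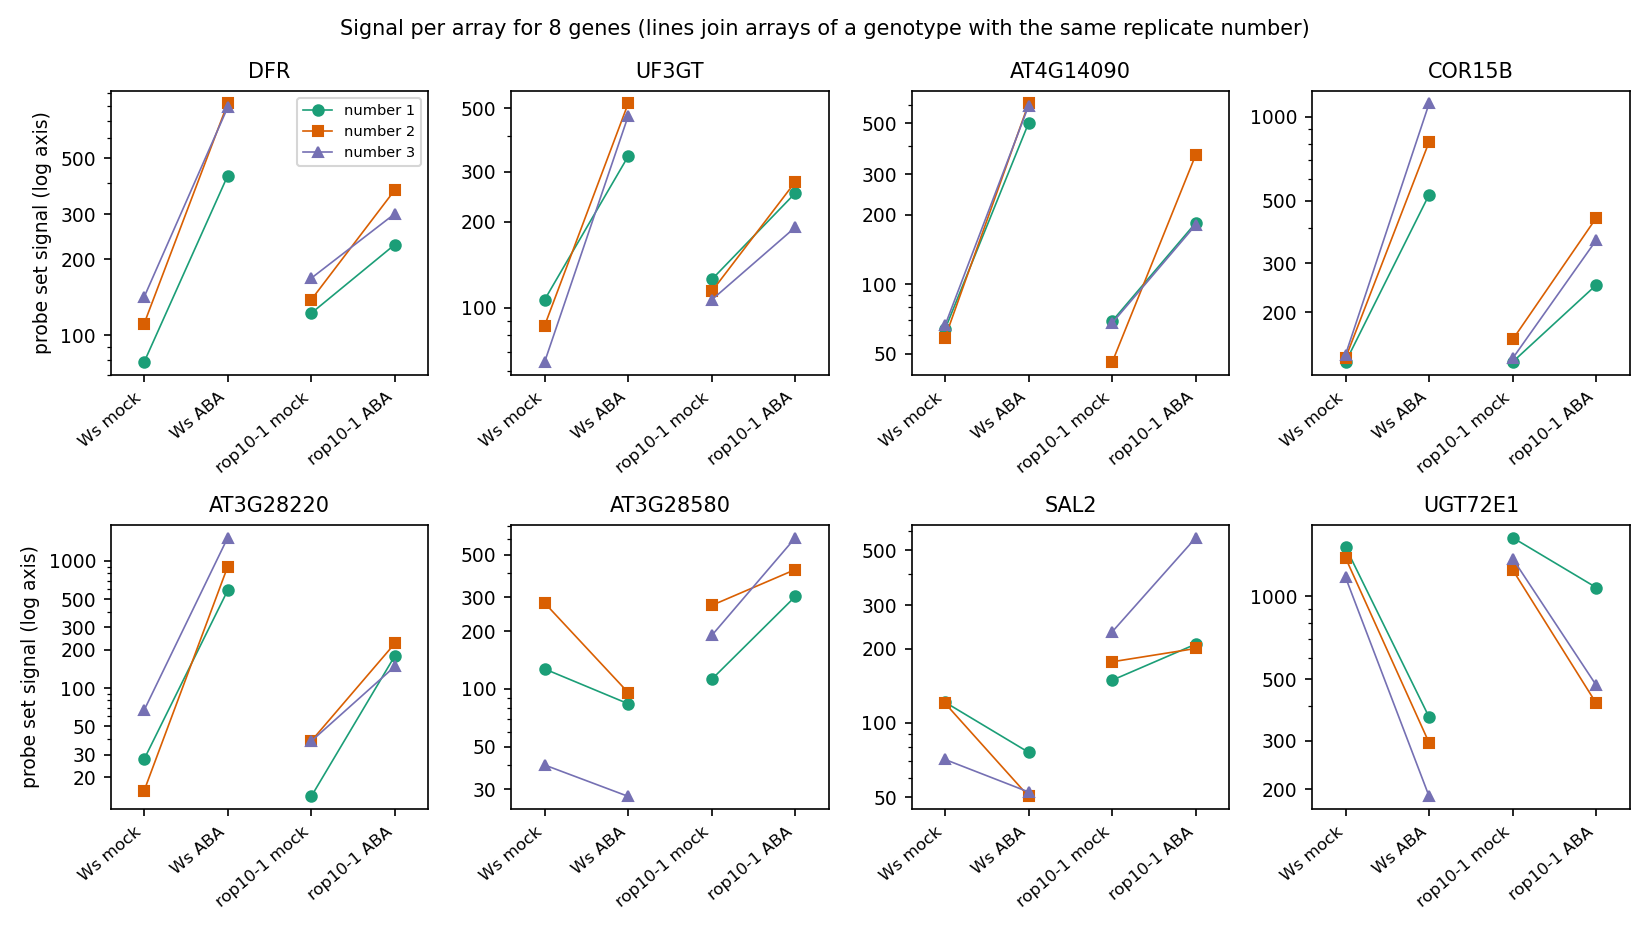
Probe set signal (log axis) of 8 genes on each of the 12 arrays, with lines joining the mock and ABA arrays of a genotype that share a replicate number. DFR, UF3GT, AT4G14090, COR15B and AT3G28220 reach lower signals in rop10-1 ABA than in Ws ABA on every array, AT3G28580 and SAL2 higher ones, and UGT72E1 stays higher in rop10-1 ABA.

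The LEA and ABA marker genes did not share a direction. Of the list of 31 ABA-induced markers 5 were measured, all of which rose with ABA on average, and their median interaction was -0.23, with 2 above 0 and 3 below. Of 10 measured LEA and dehydrin genes, 6 were above 0 and 4 below, with a median of 0.04, and none passed. Both lists had 1 gene that was lower by 0.5 or more in all numbers, COR15B.

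COR15B and its neighbour COR15A encode LEA proteins of the chloroplast that are known from cold acclimation. COR15B had a signal of 133, 137 and 141 in Ws mock and 133, 160.1 and 137 in rop10-1 mock, and then 527, 813 and 1115 in Ws ABA and 251, 435 and 363 in rop10-1 ABA. The ABA arrays of the genotypes did not overlap, and the interaction was -1.21 (SE 0.34, 95% interval -1.96 to -0.47), with -1.03, -1.08 and -1.54 in the numbers. COR15A had 2406, 3556 and 3397 in Ws ABA and 1642, 2783 and 2045 in rop10-1 ABA, which overlapped, and its interaction of -0.59 had an interval of -1.49 to 0.32. The COR15A value moved to -0.91 without rop10-1 mock 1 and to -0.30 without rop10-1 mock 2. The transcripts of the pair are similar, and shared hybridisation was not tested.

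The 3 most strongly induced LEA genes had mock signals of 2.3 to 33.2, around or below the 16 added before taking logs, so their responses depend on that number. In Ws ABA and rop10-1 ABA their signals overlapped, at 1708.5 to 3541 and 2035 to 3701 for AT3G02480, 1271 to 1687 and 1272.5 to 1524 for LEA4-5, and 439 to 572.5 and 263 to 726 for AT3G17520. AT3G02480 had an ABA response of 6.3 in Ws and 6.41 in rop10-1 (interval of the difference -1.1 to 1.31). LEA4-5 had 5.60 and 5.79 (interval -0.62 to 1.00), and AT3G17520 4.46 and 4.08 (interval -1.38 to 0.61). With 1 or 64 added instead, the interaction was -0.03 or 0.13 for AT3G02480, 0.51 or 0.01 for LEA4-5 and -0.82 or -0.17 for AT3G17520. Of the dehydrins, COR47 had an interaction of 0.30 (interval -0.47 to 1.08) and LTI30 -0.23 (interval -0.94 to 0.47). AT2G46140, AT2G44060 and AT1G54410 had 0.23, 0.05 and 0.03.

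**Figure D4:**
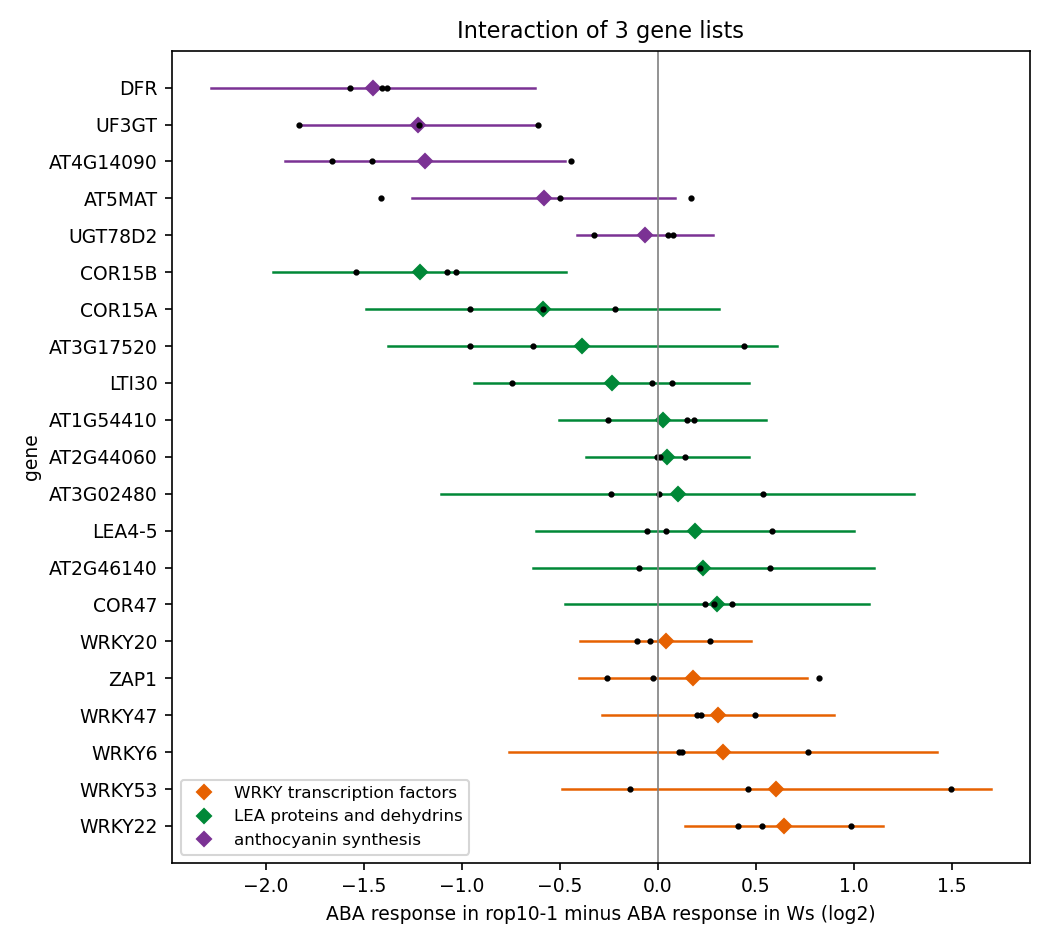
Interaction (log2 ABA response in rop10-1 minus that in Ws) of the measured members of 3 lists, with diamonds for the mean, bars for the unadjusted 95% interval of the fit over 12 arrays and black dots for the 3 replicate numbers. The means of all 5 anthocyanin genes lie below 0 and those of all 6 WRKY genes above 0, with some single numbers on the other side. The means of the 10 LEA and dehydrin genes lie on both sides.

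Outside these lists, AT3G28220, a gene of the TRAF-like family, had the largest negative interaction of all tested probe sets. Its signal was 586, 901 and 1522 in Ws ABA and 179, 225 and 148 in rop10-1 ABA, from mock signals of 27.6, 15.6 and 67.0 in Ws and 14.1, 38.4 and 38.3 in rop10-1. The ABA groups did not overlap and the mock groups did. The response was 4.29 in Ws and 2.15 in rop10-1, an interaction of -2.14 (SE 0.55), which was smaller in number 1 than in the others (-1.09, -2.71 and -2.62).

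The jacalin-type lectin gene JAL23 had 708, 364 and 249 in Ws ABA and 252, 119 and 84.7 in rop10-1 ABA. Its arrays with number 1 were the highest in every group, and the ABA groups overlapped, but within each number the rop10-1 ABA array was lower. The interaction was -1.29 (SE 0.78, 95% interval -2.99 to 0.40), with -0.69, -1.79 and -1.39 in the numbers. This interval includes the spread between numbers. The unadjusted p of limma was 0.123 in this fit and 0.000409 with the replicate block, where the adjusted p was 0.908. As the gene was picked by its interaction, these p-values are a description. The other 3 measured genes of the lectin list, JAL34, JAL33 and JAL22, had 0.17, 0.05 and 0.00.

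Another 6 of the 12 lowest genes had mean ABA responses above 0 in Ws and below 0 in rop10-1. AT1G78020, a gene of the FLZ zinc finger family, stayed at 382, 672 and 568 in Ws ABA beside 374, 629 and 518 in Ws mock. In rop10-1 it was 313, 252 and 269 with ABA beside 566, 484 and 653 in mock, so that rop10-1 ABA was below all other arrays. AT1G12845 had 636, 678 and 746 in Ws ABA and 420.1, 259.6 and 359.6 in rop10-1 ABA, without overlap, and an interaction of -1.21 (SE 0.30). CRR42, a gene of the chloroplast NAD(P)H dehydrogenase pathway, and AT5G48490, of a lipid-transfer protein like DIR1 of systemic immunity, had -1.01 (SE 0.67) and -1.0 (SE 0.61), with ABA groups that overlapped. Single arrays moved both, the interaction of CRR42 to -0.45 when Ws mock 1 was left out and to -0.60 when Ws ABA 3 was, and the interaction of AT5G48490 to -0.64 without rop10-1 ABA 2.

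AT1G34640 had an interaction of -0.85 (SE 0.28), with an ABA response of 0.60 in Ws and -0.24 in rop10-1. AT3G47330, whose probe set is of a type that shares probes with other transcripts and is uncertain for that reason, had -0.88 (SE 0.30), or -0.55 with 64 in place of 16 added to the signal. AT3G22210 fell with ABA on average, with a response of -0.54 in Ws and -1.44 in rop10-1. Its interaction was -0.90 (SE 0.54), or -0.47 with Ws mock 1 left out and -0.60 with Ws ABA 3 left out, and its Ws signals were spread widely (891, 1824 and 2657 in mock and 654, 1233 and 1714 with ABA).

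Other genes lower by at least 0.5 in every number were BRK1, a subunit of the SCAR/WAVE complex of actin branching, which is known to act downstream of ROPs, and STOMAGEN, which encodes a peptide that promotes stomata. BRK1 had an interaction of -0.70 (SE 0.16), with mean signals of 347 in Ws mock, 414 in Ws ABA, 431 in rop10-1 mock and 310.1 in rop10-1 ABA. STOMAGEN had -0.67 (SE 0.47), with 573 in Ws ABA and 321 in rop10-1 ABA. Both were chosen after their values were seen.

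On the higher side, AT3G28580 had the largest weakest number of any gene. Its signal in Ws was 127, 280 and 40.2 in mock and 83.7, 95.7 and 27.6 with ABA, lower with ABA in each number. In rop10-1 it was 112, 272 and 189.7 in mock and 303, 418 and 612 with ABA, higher with ABA in each number. The interaction was 1.94, and it was nearly the same in the 3 numbers (1.83, 2.00 and 1.98), although the signals of a group differed several-fold between numbers. The SE was 0.77 in the fit over arrays and 0.192 in the fit to the 3 differences, where it passed.

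The unnamed probe set 250286_at passed in the same fit, with an interaction of 2.31 (SE 0.247) and 1.88, 2.36 and 2.68 in the numbers. Its Ws signals were 191, 27.8 and 2.70 in mock and 222, 46.7 and 2.40 with ABA, and its rop10-1 signals 138, 29.3 and 92.1 in mock and 638, 317 and 663 with ABA. In number 3 both Ws signals lay well below the 16 added before taking logs, and the rop10-1 ABA signal was the highest of all arrays.

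SAL2, a gene of the bisphosphate phosphatase family, had higher signals on every rop10-1 array than on every Ws array, in mock and under ABA. Its signals were 121, 120.1 and 71.1 in Ws mock and 149, 177 and 234 in rop10-1 mock, and 76.0, 50.4 and 52.5 in Ws ABA and 209, 200.3 and 563 in rop10-1 ABA. The ABA response was negative in every number in Ws and positive in every number in rop10-1, an interaction of 1.26 (SE 0.48). The interaction of SAL2 was 0.80 without rop10-1 ABA 3, the highest array.

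The 12 highest genes all had rop10-1 ABA arrays above every Ws ABA array, beside the 10.9% of all probe sets with these groups apart, but they were picked by a quantity that contains this difference. In mock 2 of the 12 were apart (SAL2 and AT3G07180), beside 9.4%. Of the 12 lowest genes 6 were apart under ABA (DFR, AT3G28220, COR15B, AT1G78020, AT1G12845 and AT3G47330) and 0 in mock.

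AT1G33420, of a PHD finger protein, had 65.0, 80.6 and 48.3 in Ws ABA and 117, 198 and 207 in rop10-1 ABA, an interaction of 1.18 (SE 0.38). AT3G09830, of a receptor-like cytoplasmic kinase of pattern-triggered immunity, had 338, 295 and 184 and 496, 563 and 629.8, an interaction of 0.97 (SE 0.39). In both genes the mock groups overlapped and the ABA response was below 0 in all Ws numbers and above 0 in all rop10-1 numbers.

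AT5G52890, of an AT-hook DNA-binding protein, fell with ABA on average over the genotypes. It went from 119, 152 and 144 to 71.2, 75.5 and 67.1 in Ws, while rop10-1 had 92.9, 121 and 114 in mock and 109, 134 and 116 with ABA. Its interaction of 0.94 had an SE of 0.21 and an unadjusted p of limma of 0.000738 in the fit over arrays. With the replicate block the adjusted p was 0.908. As AT5G52890 was picked by its interaction, these p-values are a description. AT3G07180, of a subunit of the GPI-anchor transamidase, was lower in rop10-1 than in Ws in mock (366, 267 and 291 against 482, 443 and 448) and higher with ABA (509, 415 and 381 against 321, 346 and 373), an interaction of 0.87 (SE 0.21).

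AT5G62620, of a galactosyltransferase of arabinogalactan proteins, had tight signals of 136, 160.3 and 111 in Ws ABA and 232, 233 and 244 in rop10-1 ABA, beside 188, 209 and 159.7 and 176, 185 and 174 in mock. Its interaction was 0.78 (SE 0.20). AT1G76970, of a TOM1-like ubiquitin-binding protein, and AT2G20950 had 1.04 (SE 0.37) and 0.79 (SE 0.26).

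ZCF37, the trihelix factor gene AT2G38250 and the receptor-like cytoplasmic kinase gene AT4G17660 had interactions of 0.96, 0.82 and 1.08, with SEs of 1.28, 0.67 and 0.94. The Ws signals of all 3 differed widely between numbers. ZCF37 had 20.4, 410.4 and 16.2 in Ws mock and 11.8, 174 and 10.9 in Ws ABA, so that number 2 stood far above the others in Ws, but not in rop10-1 (264, 426 and 309 in mock and 347, 353 and 617 with ABA). The interaction of ZCF37 was -0.25 with Ws mock 2 left out and 1.90 with Ws ABA 2 left out.

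AT4G17660 was lowest in number 3 in Ws, at 119, 52.0 and 3.00 in mock and 95.2, 80.1 and 10.8 with ABA, while rop10-1 had 90.1, 51.1 and 87.6 and 212, 132 and 327. With 1 array left out, the interaction of AT4G17660 ranged from 0.43 (Ws ABA 3) to 1.86 (Ws mock 3), and the interaction of AT2G38250 from 0.35 (Ws mock 2) to 1.35 (Ws mock 3). Together with AT3G28580 and probe set 250286_at, these genes had number 3 as the lowest array of both Ws groups, with ZCF37 close to its number 1.

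Other genes higher by at least 0.5 in every number included the leucine-rich repeat receptor kinase genes AT1G51850 and AT1G51820, and AT4G38550, all chosen after their values were seen. AT1G51850 had mean signals of 225 in Ws mock, 67.2 in Ws ABA, 220.5 in rop10-1 mock and 280.5 in rop10-1 ABA, an interaction of 1.43 with 2.71, 0.57 and 1.01 in the numbers. AT1G51820 had 1.29, with 37.3 in Ws ABA and 99.8 in rop10-1 ABA. AT4G38550 fell with ABA on average, with a response of -1.22 in Ws and -0.14 in rop10-1, and had 1.08 (SE 0.39). Number 2 was the weakest in all 3 genes.

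**Figure D5:**
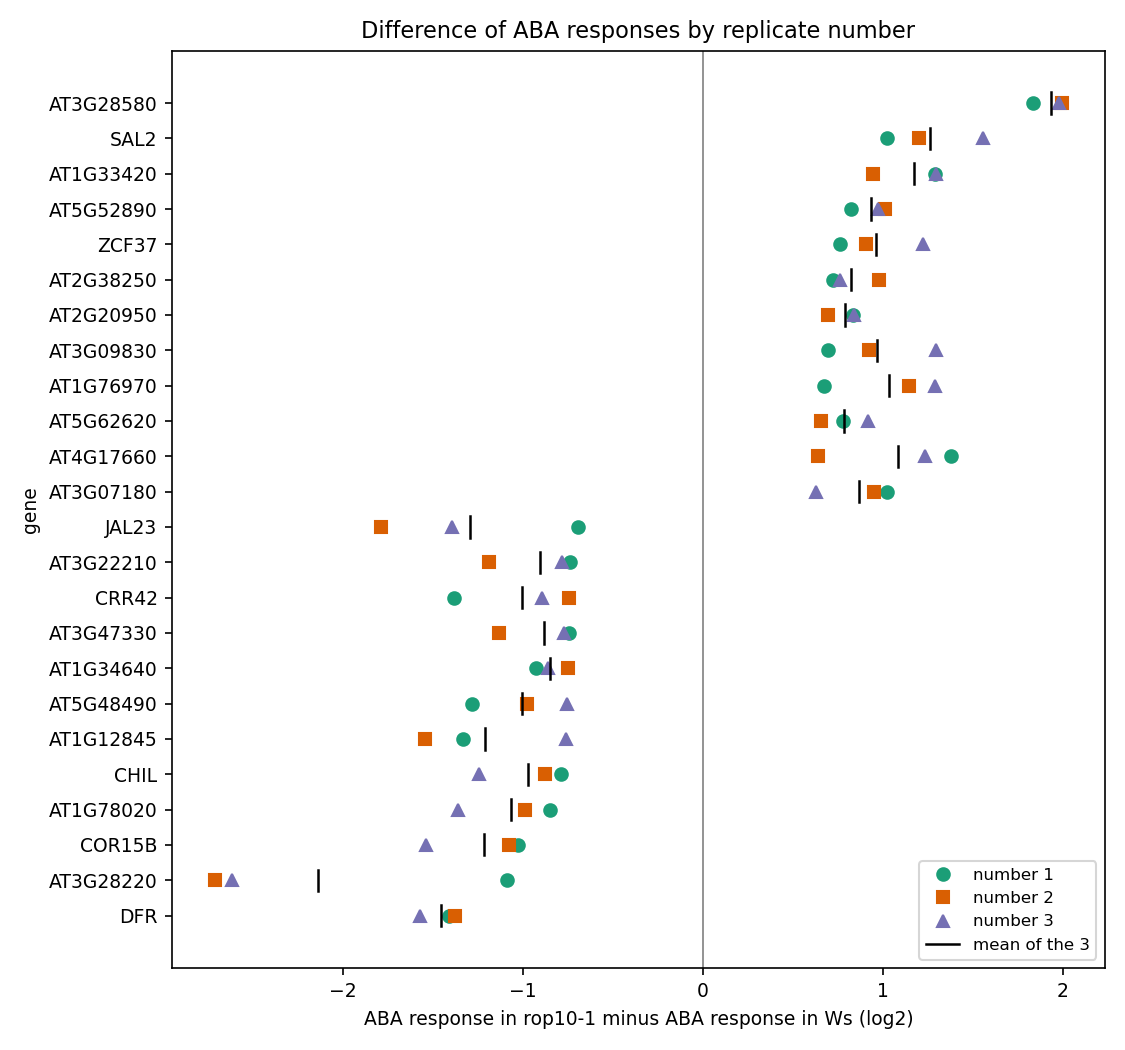
Interaction (log2 ABA response in rop10-1 minus that in Ws) in replicate numbers 1, 2 and 3 for the 12 highest and 12 lowest genes, ordered by their weakest number, with a vertical bar for the mean. The genes were chosen to keep their sign in all numbers. DFR and AT3G28580 have the 3 numbers closest together for the size of their mean, and AT3G28220 is smaller in number 1.

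UGT72E1, a glucosyltransferase gene of monolignols, the lignin precursors, fell with ABA on average, with a response of -2.23 in Ws and -1.22 in rop10-1. Its signal was 365, 295 and 189 in Ws ABA and 1076, 409.6 and 476 in rop10-1 ABA, from 1507, 1378 and 1172 in Ws mock and 1631, 1247 and 1369 in rop10-1 mock. The interaction was 1.02 (SE 0.45), and number 1 of rop10-1 ABA stood above the other arrays of its group. Without that array it was 0.60. Of 29 measured UDP-glycosyltransferase genes 21 were above 0 (19 after median centring) and 8 below, with a median of 0.12, and none passed. UF3GT was its lowest member, UGT76E2 had -0.84 and UGT71C5 0.28.

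All 6 measured WRKY transcription factor genes, a family of immune and stress regulators, had a mean interaction above 0, beside 50.1% of all tested probe sets. This held after quantile normalization and median centring, and their median was 0.32. Only 3 of the 6 were above 0 in all 3 numbers, and none passed. WRKY22, a factor of pattern-triggered immunity, had 408, 417 and 407 in Ws mock and 272, 301 and 214 in Ws ABA, against 311, 314 and 369 in rop10-1 mock and 426, 306 and 287 in rop10-1 ABA. Its interaction was 0.64 (interval 0.14 to 1.15). WRKY53, a factor of senescence, had 0.61 (interval -0.49 to 1.70) and a positive interaction in 2 of 3 numbers. WRKY47 had 0.31 and ZAP1 0.18, but ZAP1 was below 0 in numbers 1 and 3 (-0.02 and -0.26).

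Of 11 measured cytochrome P450 genes 9 were above 0, with a median of 0.16. CYP71B23 had 1.00 (SE 0.56), CYP84A4 0.80 (SE 0.38), CYP78A9 0.34 and CYP71B29 0.32. Of 10 peroxidase, extensin and pectin enzyme genes 9 were above 0 (8 after quantile normalization or median centring), with a median of 0.14. SAPX, a stromal ascorbate peroxidase, had 0.54, ATPMEPCRB 0.26 and AT5G66390 0.17, while the peroxidase gene Prx37, which fell with ABA on average, had -0.38. No member of these lists passed.

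Among cell wall loosening genes, 7 of 19 expansin and xyloglucan enzyme genes were above 0 and 12 below, with a median of -0.04. XTH32 had -0.43 (SE 0.22), with signals of 2608, 3179.8 and 3666 in Ws ABA and 1780, 1772 and 1696 in rop10-1 ABA that did not overlap. Its mock arrays did not overlap either, at 1999, 1697 and 2208 in Ws and 1656, 1224 and 1592 in rop10-1, and the difference between rop10-1 and Ws was -0.40 in mock and -0.83 under ABA. EXPA8 had -0.79 and XTH20 -0.41, and EXPA7 0.41. Of 11 glutathione transferase genes, which code for detoxifying enzymes, 4 were above 0 and 7 below (median -0.06). After quantile normalization 5 were above and 6 below. The 4 with the smallest p, GSTU26, GSTU27, GSTU15 and GSTU25, had -0.47, -0.34, 0.46 and -0.34. The 6 calmodulin-like genes had 3 on each side (median -0.12), or 2 above and 4 below after quantile normalization. Among them CML30 had -0.36, CML23 -0.77, CML41 0.59 and CML38 -0.27. No gene of these 3 lists passed.

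The genes of ABA and ROP signalling themselves were mostly without a tested probe set assigned to them alone. Of the 28 listed ABA receptors, phosphatases, kinases and transcription factors only the bZIP factor gene EEL was measured, at 0.04 (interval -0.93 to 1.01). Of the 16 listed genes of the ROP module, SPK1, which encodes an exchange factor that activates ROPs, had 0.27 (interval -0.33 to 0.87). It was above 0 only in number 2, with -0.02, 1.01 and -0.18 in the numbers. SCN1, which encodes an inhibitor that holds ROPs in the inactive state, had 0.01 (interval -0.41 to 0.44), and its sign turned after quantile normalization or median centring. Among 15 bZIP genes 9 were above 0, with a median of 0.03. BZIP60, a factor of the unfolded protein response, had 0.54 (SE 0.51), BZIP53 0.31, AT2G21230 0.31 and BZIP28 -0.15.

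Markers of cell types and of handling were set beside these results. The summed signal of the 2 measured leaf markers, LHCB4.1 and LHCB4.2, was 14647 to 19193 in Ws mock, 14497 to 17726 in Ws ABA, 14526 to 15698 in rop10-1 mock and 13538 to 15913 in rop10-1 ABA. The 2 root hair markers, EXPA7 and EXPA18, summed to 209 to 336 and 214 to 308 in Ws mock and ABA, and to 270 to 289 and 296 to 344 in rop10-1. The 2 guard cell markers, AT1G22690 and FMA, summed to 1406 to 1494 and 654 to 1168 in Ws, and to 1328 to 1932 and 527 to 957 in rop10-1. Their interactions were -0.65 for AT1G22690 (interval -1.58 to 0.27), 0.00 for FMA (below 0 after quantile normalization or median centring), 0.41 for EXPA7, 0.26 for EXPA18, 0.07 for LHCB4.1 and -0.14 for LHCB4.2. The part of these cell types in the genes above was not tested. No listed seed marker had a tested probe set assigned to it alone, so seed markers were not examined.

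The 5 measured light-harvesting and photosystem genes lay between -0.21 (LHCB4.3) and 0.07 (LHCB4.1), where the latter turned below 0 after quantile normalization. PSBW had -0.09. The reference genes GAPC2, PEX4 and AT4G34270 had 0.12, 0.08 and -0.12. Of the wounding and handling genes, STZ had 0.61 (SE 1.1), AT4G27652 0.09 and AT4G27654 -0.02. AT4G27652 had 673, 919.5 and 271 in Ws mock and 574, 1144 and 218 in rop10-1 mock, so that number 2 was high and number 3 low in both genotypes. The hypoxia gene AT3G10040 had 0.28 (SE 1.94).

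Probe sets for the plastid genome, which is transcribed inside the chloroplast, were 66 in number. Of these 47 were above 0, beside 7971 of all 15923 tested. Their median was 0.11 beside 0 for all tested, with medians of 0.25, 0.07 and 0.05 in numbers 1, 2 and 3. Their median ABA response was -0.15 in Ws and -0.01 in rop10-1, and none passed. rpoB, which encodes a subunit of the plastid RNA polymerase, was the only one at least 0.5 higher in every number, at 0.84 (SE 0.73). Of all tested probe sets 0.477% were so. Arrays of this kind label transcripts through their poly(A) tails, so how these values relate to plastid RNA levels was not tested.

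Responses in opposite directions were about as frequent in either sense. With ABA 166 probe sets (1.04%) were lower in all 3 numbers of Ws and higher in all 3 of rop10-1, and 193 (1.21%) the reverse. Of the 24 highest and lowest genes 13 did so. Among the 76 probe sets higher in every number the median difference between rop10-1 and Ws was -0.05 in mock and 0.79 under ABA. Among the 53 lower ones it was 0.29 in mock and -0.57 under ABA. Since the interaction is the difference under ABA minus the difference in mock, these parts are not independent of the choice of the probe sets.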

How the data were processed

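RNA of 12 whole-seedling samples was hybridised to Affymetrix ATH1 arrays. The deposited values are linear intensity per probe set; per the submitters' processing notes the authors used GCOS 1.1.1. Its settings were not given in these sources. They were used as deposited, since their trimmed mean was near-equal on all arrays.

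Samples were grouped by title. The table held 22810 probe sets, of which 64 controls and the 30% with the lowest mean were left out. After adding 16, log2 values entered limma 3.58.1 (R 4.3.3) with 1 mean per group over all 12 arrays and an intensity trend. Tests were two-sided, and p-values were adjusted by Benjamini-Hochberg over all 15923 probe sets. Alternatives were the pseudocount, the low filter, quantile normalization, median centring, array weights, the replicate block, the fit to within-number differences, stricter or looser minimum sizes and each array left out. Leaving out a whole number, and the block with each array left out, were added after the data had been seen. The procedure was tested on simulated data.

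Replicate numbers come from the titles. Deviations from group means correlated at 0.215 to 0.711 over 18 pairs of arrays of the same number and at -0.475 to 0.11 over 36 pairs of different numbers, so the numbers paired the samples; what the numbers stand for is not stated in the labels.

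Names came from the platform's annotation of probes, possibly outdated, with loci matched to a RefSeq gene table (assembly TAIR10.1). A single gene was listed for 8722 tested probe sets, 8699 of them with a RefSeq locus, several genes for 316 and none for 6885. Only those with a single gene were named. Named genes were the 12 per direction with the largest weakest replicate number and up to 4 per list by smallest interaction p, and others are marked as chosen after their values were seen. The lists and the choice of comparison were made with earlier results of these data known. Of 30 lists 21 had a measured member, a gene to which alone a tested probe set was assigned. Lists searched by family name found only genes whose symbols or synonyms carry it. No promoter or protein sequence was used here.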

Additional observations from a re-analysis of the deposited data

Results flagged for a closer look

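The genes below stood out because ABA moved them in opposite directions in the genotypes in all 3 replicate numbers. They were picked from the 24 genes with the largest weakest number, whose choice favours such a pattern, and beyond the interaction test across all probe sets, which none of them passed in the fit over the 12 arrays, the difference in direction was not tested.

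Genes with a positive response in Ws and a negative response in rop10-1 were AT1G78020 (interaction -1.067), CRR42 (-1.007), AT5G48490 (-1.004), AT3G47330 (-0.881) and AT1G34640 (-0.847). The response of AT1G78020 in Ws was small, 0.03, 0.09 and 0.13 in numbers 1, 2 and 3, while in rop10-1 it was -0.82, -0.90 and -1.23.

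Genes with a negative response in Ws and a positive response in rop10-1 were AT3G28580 (1.936), SAL2 (1.26), AT1G33420 (1.175), AT1G76970 (1.035), AT3G09830 (0.97), AT5G52890 (0.936), AT3G07180 (0.866) and AT5G62620 (0.785). The response of AT5G52890 in rop10-1 was 0.20, 0.14 and 0.03, close to 0, against -0.63, -0.88 and -0.94 in Ws. That of AT5G62620 was -0.42, -0.35 and -0.47 in Ws and 0.36, 0.31 and 0.45 in rop10-1.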

How the results depend on the processing

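The count of called interactions was 0 in every setting tried, with each array or each replicate number left out and with the replicate block, except for 2 in the fit to within-number differences. The number of probe sets at an unadjusted interaction p under 0.05 was 301, and 220 to 703 with 1 array left out, 803 with the replicate block and 877 with array weights. It was 1335 in the fit to within-number differences, and 504 to 1325 with the block and 1 array left out. Because the replicate numbers paired the samples, the blocked counts stand in the report as well. The counts of probe sets lower and higher by at least 0.5 in every number, 53 and 76, were 30 and 47 with 64 added to the signal, 177 and 147 with no low filter, and 33 and 48 with the lowest 50% left out. They were 384 and 374 at a minimum of 0.25, 3 and 4 at a minimum of 1, and 215 to 233 and 190 to 416 with 1 number left out, where only 2 numbers had to pass. The median interaction of the probe sets that rose ran from -0.098 without Ws mock 1 to 0.066 without rop10-1 mock 1, and was 0.05 without Ws mock 2 and -0.043 without Ws ABA 2. For the probe sets that fell it ran from -0.049 to 0.064, and was -0.094 for those that fell at least 2-fold. Of 538 recomputed interactions of the 24 highest and lowest genes 452 moved by less than the spread between replicate numbers, and 537 kept their sign, the exception being ZCF37 without Ws mock 2 (-0.249). Of 1316 recomputed interactions of 58 list genes 1236 kept their sign. Signals near or below the 16 added, as in AT4G17660 and ZCF37, limit what can be measured.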
